A study of Mus musculus with 2 samples.

Results

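The 10 genes described here encode transcription factors of the naive pluripotency network of mouse embryonic stem cells: Klf2, Klf4, Klf5, Esrrb, Tfcp2l1, Zfp42, Tbx3, Prdm14, Nr5a2 and Nr0b1. They were taken by symbol from the 32285 genes listed in the count matrices, and all 10 were present. E14 mouse embryonic stem cells (129/Ola background) were grown on gelatin in medium with 15% serum and 1000 U/mL leukaemia inhibitory factor (LIF). Small interfering RNA (siRNA) was delivered by transfection, either a control or one against Son, the gene of a splicing factor found in nuclear speckles. Cells of both groups were taken 24 hours after transfection, frozen, thawed, sorted for exclusion of the dye 7-AAD and barcoded with 10x Genomics 3' chemistry. Each group, named control and sonKD here, held 1 library, so no test between them was possible. An effect of the knockdown and any other difference between the libraries cannot be told apart.

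Naive pluripotency is the state of the preimplantation epiblast, and embryonic stem cells hold it in culture while LIF activates Stat3 and while differentiation signals through FGF and ERK are limited. LIF acts on Klf4 and Tfcp2l1, Wnt signalling relieves Tcf7l1 repression of Esrrb, and Klf2, Klf4 and Klf5 overlap in function. These factors work around the core trio Pou5f1, Sox2 and Nanog, and several of them are known to vary between cells grown in serum. Zfp42, also called Rex1, is a zinc finger protein used as a marker of the naive state. Tbx3 is a T-box factor, Prdm14 restrains FGF signalling and DNA methylation, Nr5a2 and Esrrb are orphan nuclear receptors that bind a shared DNA motif, and Nr0b1 (Dax1) is a nuclear receptor that lacks the usual DNA-binding domain.

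Cells were barcodes with at least 2500 unique molecular identifiers (UMIs, each marking 1 captured molecule), 1000 or more genes and no more than 10% of UMIs from mitochondrial genes. This left 4978 control and 2731 sonKD cells, with medians of 7737.5 and 11612 UMIs, and 2 barcodes were common to both. Barcodes that failed on mitochondrial UMIs alone made up 11.2% of control and 27.9% of sonKD barcodes past the other limits. Levels are counts scaled to a common library total (CPM). Son itself, the targeted gene, had 169 CPM in control against 106 CPM in sonKD, a log2 ratio of -0.67 (95% counting interval -0.73 to -0.61). All 10 markers of mouse embryonic stem cells were detected, with a sum of 8552 CPM for control and 9334 CPM for sonKD. Dppa5a made up 5027 and 6075 CPM of these, and the other 9 markers summed to 3524 and 3259 CPM. Summed markers of primitive endoderm were at 302 and 295 CPM, most of it from Sparc, those of neuroectoderm at 118 and 101 CPM and those of trophectoderm at 69.4 and 91.0 CPM. Markers of mesoderm and of feeder fibroblasts stayed under 6 CPM in sum. Elf5, Neurog2, Col3a1, Postn and Lum had no UMI in the cells of either library.

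Of the 10 genes, 7 had a promoter in the RefSeq table of GRCm38.p6, with 9 promoters between them. The 250 bases before the start site were searched on both strands for GGGTGTGG and GGGCGTGG, which KLF proteins can bind, TCAAGGTCA, the motif shared by Esrrb and Nr5a2, TTCCNGGAA, a STAT site, and ATGCAAAT, the octamer. The promoters of Zfp42 and Tfcp2l1 are shown because each held a pair of matches and because both genes were among the 3 highest in level. Capitals mark the matches, and sequences read 5′ to 3′ on the gene's strand toward the start site.
Zfp42: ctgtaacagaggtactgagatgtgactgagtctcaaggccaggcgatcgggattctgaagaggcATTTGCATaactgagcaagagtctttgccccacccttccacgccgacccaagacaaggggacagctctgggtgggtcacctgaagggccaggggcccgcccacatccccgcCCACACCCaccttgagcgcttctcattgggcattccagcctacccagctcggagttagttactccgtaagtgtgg
Tfcp2l1: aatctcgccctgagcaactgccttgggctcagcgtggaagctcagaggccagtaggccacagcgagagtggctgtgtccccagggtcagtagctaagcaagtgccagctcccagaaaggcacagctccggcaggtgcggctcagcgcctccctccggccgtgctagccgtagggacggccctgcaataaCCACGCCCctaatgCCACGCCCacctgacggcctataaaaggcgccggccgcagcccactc
The Zfp42 stretch is chr8:43307010-43307259, minus strand. It holds the octamer as its reverse complement, first base 186 before the start site, and GGGTGTGG as its reverse complement, first base 75 before the start site. The Tfcp2l1 stretch is chr1:118627695-118627944, plus strand, with the reverse complement of GGGCGTGG at 61 and again at 47 bases before the start site. A further GGGCGTGG lies in the downstream one of the Nr5a2 promoters. Over all 32851 promoters, 3.20% held GGGTGTGG, 4.79% GGGCGTGG and 1.60% the octamer. TCAAGGTCA, found in 0.387% of all promoters, and TTCCNGGAA, found in 0.913%, matched none of the 9. These matches are letters in a window, and no binding was measured here.

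The factors fell into 3 tiers of RNA level (per-cell 3' counts give 1 UMI per captured molecule whatever the gene's length, so levels are compared in CPM without division by length). Whether UMIs of introns were counted is not given in the sources used here, and if they were, the levels of genes with long introns such as Esrrb, Nr5a2 and Tfcp2l1 include them. Zfp42 alone stood at the top, with 644 CPM in control (95% Poisson interval 636 to 652) and 621 CPM in sonKD (612 to 629). The zinc finger factors Klf2 and Klf5 and the Grainyhead-like factor Tfcp2l1 followed, Klf2 at 383 and 343 CPM, Tfcp2l1 at 351 and 337 CPM and Klf5 at 339 and 318 CPM. In control all neighbours of this upper tier were separate within counting error, while in sonKD the intervals of Klf2 (336 to 349) and Tfcp2l1 (331 to 343) overlapped.
Tbx3 was at 191 and 174 CPM, Klf4 at 139 and 135 CPM and Esrrb at 134 and 124 CPM, and the intervals of Klf4 and Esrrb overlapped in control alone. The lowest tier held Nr5a2 at 80.3 and 63.9 CPM, Nr0b1 at 52.7 and 60.6 CPM and Prdm14 at 13.1 and 10.3 CPM. Nr5a2 and Nr0b1 were apart in control but overlapped in sonKD. The order of all 10 was the same in both libraries. Prdm14 rested on 534 control and 329 sonKD UMIs, against 26350 and 19883 for Zfp42. For scale, the core factor Pou5f1 was at 1104 and 916 CPM, Sox2 at 352 and 336 CPM and Nanog at 170 and 153 CPM.

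**Figure D1:**
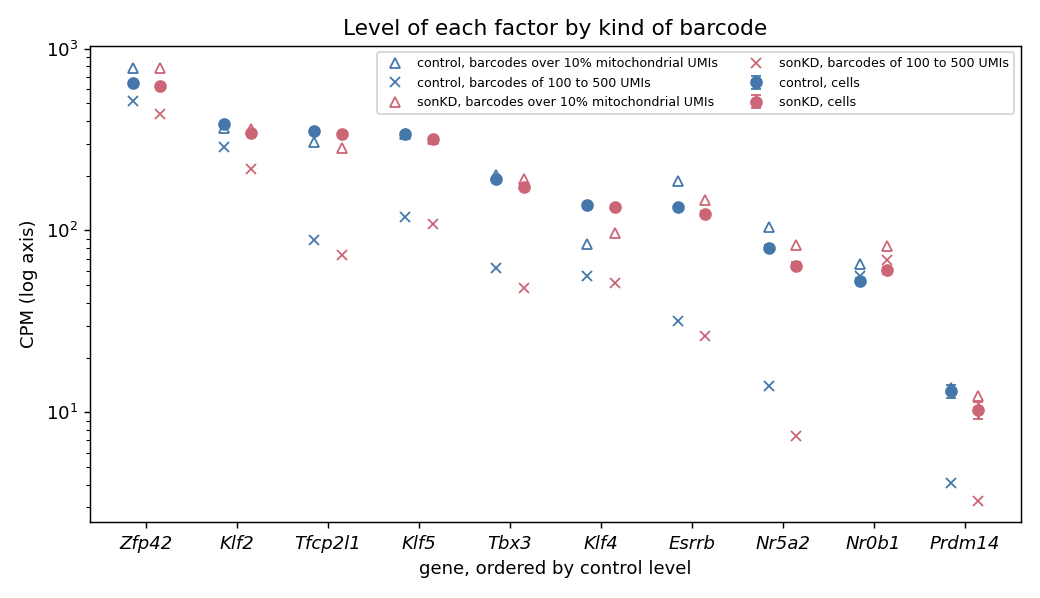
CPM (log axis) of the 10 factors, ordered by control level, in kept cells, barcodes with more than 10% mitochondrial UMIs and droplets of 100 to 500 UMIs, for both libraries. Only the points of kept cells carry 95% Poisson intervals, which are mostly smaller than the points. Nr0b1 is the 1 factor whose droplet level is above its cell level in both libraries, at 107% of it in control and 114% in sonKD.

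Measured in library sums, 9 of the 10 factors were lower in sonKD (6 of 10 under each of 3 other scalings), by small amounts that lay near the shift of the whole transcriptome. The log2 ratio of sonKD over control had a median of -0.10 over the 10 genes, against -0.12 over the 8063 genes that averaged 10 CPM or more. Of those genes 6039 were below 0, and their central 90% ran from -0.40 to 0.25. The 10 genes together had 2326 CPM in control against 2186 CPM in sonKD, a log2 ratio of -0.09 (95% counting interval -0.10 to -0.08).
The nuclear receptor Nr5a2, with 80.3 CPM in control against 63.9 CPM in sonKD, had a log2 ratio of -0.33 (-0.41 to -0.25). Prdm14 had -0.35 (-0.55 to -0.15), with a wide interval from its few UMIs. These 2 of 10 were lower by at least 1.2-fold, the size used for calls here, as were 17.6% of the 8063 genes. No factor was higher by that fold, as 4.65% of the genes were, whereas under each of the 3 other scalings described below Nr0b1 was. Nr0b1 was the 1 factor with a higher level in sonKD, with a log2 ratio of 0.20 (0.11 to 0.29).
Among the Krüppel-like factors, Klf2 had a log2 ratio of -0.16 (-0.19 to -0.12), Klf5 of -0.09 (-0.13 to -0.05) and Klf4 of -0.04 with an interval that included 0 (-0.10 to 0.01). Tbx3 had -0.13 (-0.18 to -0.08) and Esrrb -0.11 (-0.17 to -0.05). Tfcp2l1 (-0.06) and Zfp42 (-0.05) were closest to level among the genes whose interval excluded 0. The counting interval lay below 0 for 8 factors, as for 51.5% of all genes, and above 0 for 1, as for 12.3%. Such counts grow with depth, and among genes that averaged 50 CPM or more, as 9 of the factors did, the interval lay below 0 for 60.4%.
Signs near 0 depended on the scaling. Scaled by TMM factors, by DESeq2 size factors or without mitochondrial and ribosomal protein genes, the median of all genes moved up by 0.09, 0.09 and 0.07 on the log2 scale. Under these 3 scalings Klf4, Tfcp2l1 and Zfp42 were above 0. The share of all genes lower by 1.2-fold was then 7.54%, 7.84% and 9.26%, and the share higher by it 7.90%, 7.73% and 7.37%. Nr5a2 kept a negative ratio under each scaling and cell filter tried, from -0.35 to -0.24, and Nr0b1 a positive one, from 0.19 to 0.29.

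**Figure D2:**
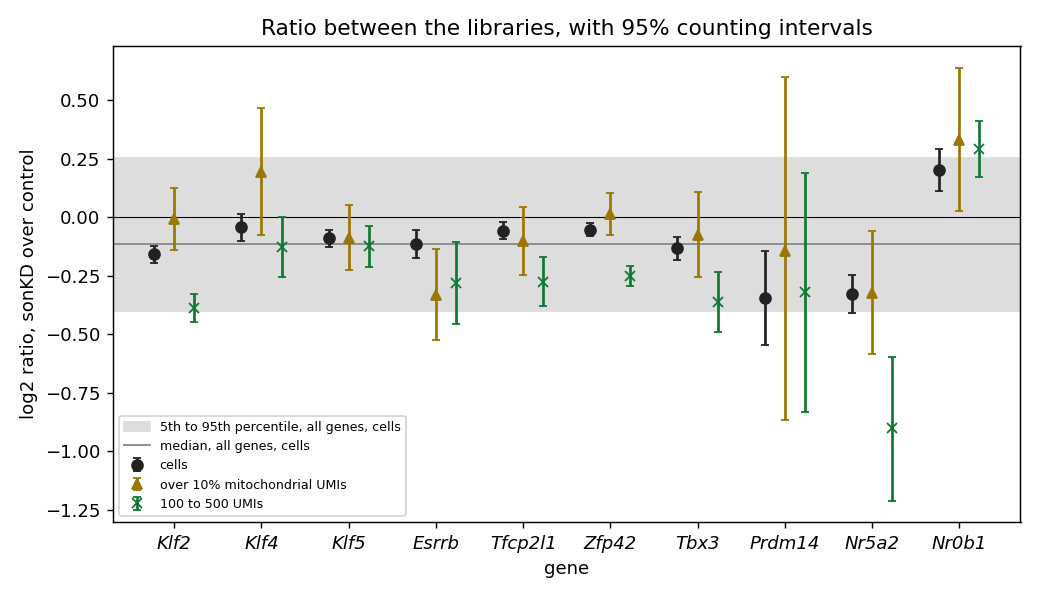
Log2 ratio of sonKD over control for each factor in kept cells, high-mitochondrial barcodes and droplets, with 95% counting intervals, beside the median and the central 90% of all genes in cells. Nr5a2 is below 0 and Nr0b1 above 0 in all 3 kinds of barcode, and the Nr5a2 ratio is lowest in droplets, at -0.90.

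The core trio was lower as well, Pou5f1 with a log2 ratio of -0.27, Nanog with -0.15 and Sox2 with -0.07. Of the 4 core factors, Pou5f1 and Sall4, the lowest at -0.29, were lower by 1.2-fold, beside 17.6% of all genes. Both were close to that limit, and none of the 4 passed it under the 3 other scalings. In the LIF-STAT3 list, 10 of 11 genes reached 10 CPM and the median ratio was -0.09. Socs3, the feedback inhibitor of the pathway, was the highest gene, with 25.4 CPM in control against 34.2 CPM in sonKD (log2 ratio 0.43, 0.30 to 0.55), and the homeobox gene Gbx2 the lowest at -0.31. In the Wnt-Tcf7l1 list the median was -0.23 over 7 of 12 genes, from Axin1, a scaffold of the β-catenin destruction complex, at -0.34 to the kinase gene Gsk3a at 0.07.
All 14 genes of the FGF-ERK list were measured, with a median of -0.19 and 4 lower by 1.2-fold. Egr1, an immediate early gene downstream of ERK, was the lowest at -0.50 and Mapk3, which encodes ERK1, the highest at 0.17. Formative and primed factors had a median of -0.12 over 10 of 15 genes, from Pou3f1 at -0.31 to Tcf15 at 0.04. The 18 other naive-state genes of 20 listed that reached 10 CPM had a median of -0.15, with Dppa5a the highest at 0.27. Lower by 1.2-fold were 1 gene each of the LIF-STAT3 and Wnt-Tcf7l1 lists and 2 each of the formative and other naive-state lists. Higher by it were Socs3 in the LIF-STAT3 list and Dppa5a among the naive-state genes. The shares over all genes, 17.6% and 4.65%, apply here too, and nothing particular to a list is read from these counts.
G2/M genes had a median of -0.16, from Plk1 at -0.42 to Cdk1 at 0.25.

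Barcodes outside the kept cells carried the same factors at other relative levels. In droplets of 100 to 500 UMIs, which hold mostly free RNA, Nr0b1 had 56.5 CPM in control against 69.1 CPM in sonKD, 107% and 114% of its level in cells. Zfp42 was at 80.2% and 70.0% of its cell level and Klf2 at 74.8% and 63.8%, while Nr5a2 reached 17.4% and 11.7% and Esrrb 23.7% and 21.1%. The remaining 5 factors lay between 21.8% and 40.4%. Genes with a short span (the distance from start to end in GENCODE M21 on GRCm38) had the higher droplet shares. Nr0b1 (chrX:86191764-86195947) spans 4.184 kb and Klf2 (chr8:72319033-72321656) 2.624 kb, whereas Esrrb (chr12:86361117-86521628) spans 160.5 kb and Nr5a2 (chr1:136842571-136960448) 117.9 kb. Over the 10 genes, Spearman's rho between span and droplet share was -0.88 (control) and -0.89 (sonKD), given as a description over 10 genes of the same 2 libraries. The part of intronic UMIs in this relation was not tested.
In droplets the log2 ratio of sonKD over control was -0.90 for Nr5a2 (-1.21 to -0.60), -0.39 for Klf2, -0.36 for Tbx3 and 0.29 for Nr0b1 (0.17 to 0.41). In barcodes with more than 10% mitochondrial UMIs it was -0.32 for Nr5a2, -0.33 for Esrrb, 0.33 for Nr0b1 and -0.01 for Klf2. Klf4 in those barcodes was at 61.0% of its control cell level and 71.8% of its sonKD cell level, whereas Esrrb was at 139% and 119% and Nr5a2 at 129% and 130%. Malat1, a nuclear RNA, was at 499% and 409% there. The part of free RNA in the counts per cell was not tested.
Tbx3 (chr5:119670669-119684724) overlaps Tbx3os1 on the opposite strand, which had 483 control and 502 sonKD UMIs of its own. These 2 counts are not scaled and come from totals of 40902904 and 32032551 UMIs, so they do not show an equal level.

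How many cells held a factor was read after random thinning of every cell to a common 2500 UMIs, since sonKD cells were deeper. Zfp42 was found in 75.8% of control cells (95% exact binomial interval 74.6 to 77.0) and 74.6% of sonKD cells (72.9 to 76.2). Klf2 was found in 56.3% and 51.8%, Klf5 in 54.3% and 51.9% and Tfcp2l1 in 54.0% and 51.9%. Tbx3 was found in 37.7% and 33.4%, Esrrb in 27.4% and 24.5% and Klf4 in 27.3% and 27.1%. A UMI of Nr5a2 was found in 17.2% and 14.4% of cells and 1 of Prdm14 in 3.01% and 2.27%. Without thinning, the shares ran from 9.56% for Prdm14 to 95.1% for Zfp42 in control and from 11% to 97% in sonKD, with Klf2 at 85.0% and 87.6% and Esrrb at 58.6% and 67.2%.
These shares need the free RNA level beside them. At 2500 UMIs with the composition of the droplets, Zfp42 would be expected in 72.5% of control and 66.2% of sonKD barcodes and Klf2 in 51.1% and 42.1%. For Nr5a2 the same expectation was 3.43% and 1.85%, and for Esrrb 7.64% and 6.33%, well under their shares of cells. Nr0b1 was found in 12.0% of control cells and 13.1% of sonKD cells, under the 13.2% and 15.9% expected from droplets. That expectation takes all 2500 UMIs as free RNA, so it cannot tell whether the Nr0b1 UMIs of cells are background. Pou5f1 was likewise at 120% and 118% of its cell level in droplets. In the droplets themselves, with medians of 305 and 296 UMIs, Zfp42 had a UMI in 14.5% and 12.1% and Nr5a2 in 0.427% and 0.221%.

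Cell-to-cell variation beyond counting was modest, and the factor that stood out depended on the measure. The Fano factor, the variance over the mean of thinned counts, is 1 under Poisson counting. For Klf2 it was 1.34 in control and 1.32 in sonKD, with Klf2 absent from 43.7% of thinned control cells where a Poisson count of the same mean gives 38.3%. At the other end, 3.15% of control cells held 4 or more Klf2 UMIs against 1.67% under Poisson counting. Zfp42 had a Fano factor of 1.31 and 1.24, Tfcp2l1 of 1.24 and 1.21, Klf5 of 1.13 and 1.2 and Klf4 of 1.11 and 1.13. The other 5 factors lay between 1.04 and 1.13.
Each factor was above the median of the 200 genes nearest to it in mean, in both libraries. Only Klf2 was above the 95th percentile of its neighbours in each library, with a Fano factor higher than 96% of them in control and, just past that limit, 95.5% in sonKD. Expressed as a coefficient of variation of the underlying rate, with the Poisson part removed, Prdm14 was highest, at 1.35 and 1.3 from few UMIs, Klf2 was at 0.595 and 0.613, Klf4 at 0.585 and 0.621, Nr5a2 at 0.696 and 0.701, and Zfp42 at 0.443 and 0.399. Nr5a2 was thus above Klf2 in both libraries. Esrrb was at 0.450 in control and 0.652 in sonKD, Nr0b1 at 0.531 and 0.629, and Klf5 at 0.394 and 0.506. With 1 library each, no error between libraries can be set on these differences.

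**Figure D3:**
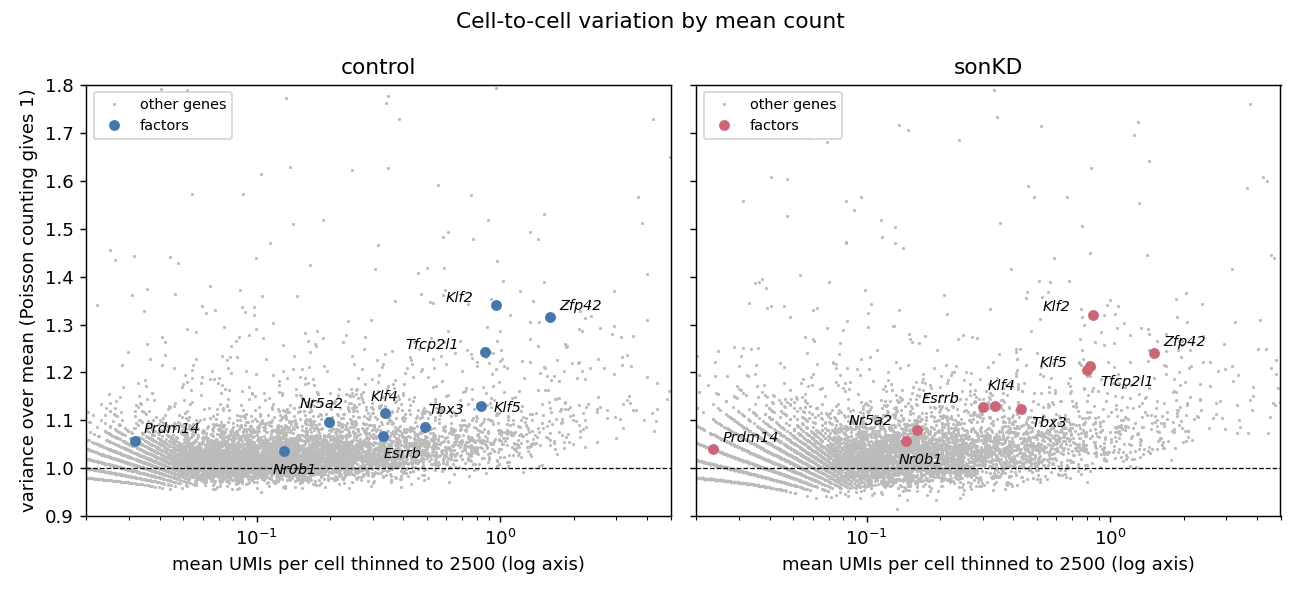
Fano factor of counts thinned to 2500 UMIs per cell against the mean count (log axis) for every gene (grey, genes above 1.8 not shown) and the 10 factors, in control (left) and sonKD (right), with a dashed line at the Poisson value of 1. Klf2, at 1.34 and 1.32, is the highest of the factors in both libraries.

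A thinned cell held a median of 4 of the 10 factors in control and 3 in sonKD, with a median of 5 factor UMIs in both. No factor was found in 65 control cells (1.31%) and 47 sonKD cells (1.72%), where independent detection would leave 0.517% and 0.754%. At least 7 factors were found in few cells, exactly 7 in 2.13% of control cells against 1.55% under independence and in 2.64% of sonKD cells against 1.07%. Without thinning, 17 control and 11 sonKD cells held none. The sum of the 10 factors had a Fano factor of 1.44 in control and 1.52 in sonKD, above the 1.22 and 1.21 that the factors give when weighted by their means.

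Pairs of factors varied together only weakly. Pearson's r over cells of log2(1 + thinned count) had a median of 0.015 over the 45 pairs in control and 0.032 in sonKD, with 33 and 38 pairs above 0. For comparison, other genes with means between those of Prdm14 and Zfp42 were paired, 7311 in control and 7975 in sonKD. Their pairs had a median of 0.0008 and 0.0006, and their 95th percentile was 0.029 and 0.036. Of the 45 pairs, 14 (31.1%) in control and 19 (42.2%) in sonKD were above it. These other genes were not matched in mean to each factor pair, and sparse counts pull r toward 0. The shares above that percentile may therefore be too high. No p is given, since cells of a library share its preparation and depth, and at such sparse counts an r of this size is no finding for any single pair. A second random thinning gave medians of 0.022 and 0.023, so no order between the libraries is read from them.
Klf2 with Zfp42 had the highest r in control, 0.084. Control cells without a Klf2 UMI held 1.5 Zfp42 UMIs on average, and those with one held 1.69. Klf4 with Zfp42 had the highest r in sonKD, 0.096, the Zfp42 mean being 1.44 without and 1.70 with a Klf4 UMI. Esrrb with Zfp42 was at 0.061 and 0.072 and Esrrb with Tfcp2l1 at 0.047 and 0.077. Esrrb with Tbx3 was at 0.063 and 0.035 and Zfp42 with Tbx3 at 0.053 and 0.069. Klf2 with Klf4, paralogs with overlapping roles, was at 0.013 and 0.009, and Klf2 with Nr5a2 at -0.026 and 0.007.

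**Figure D4:**
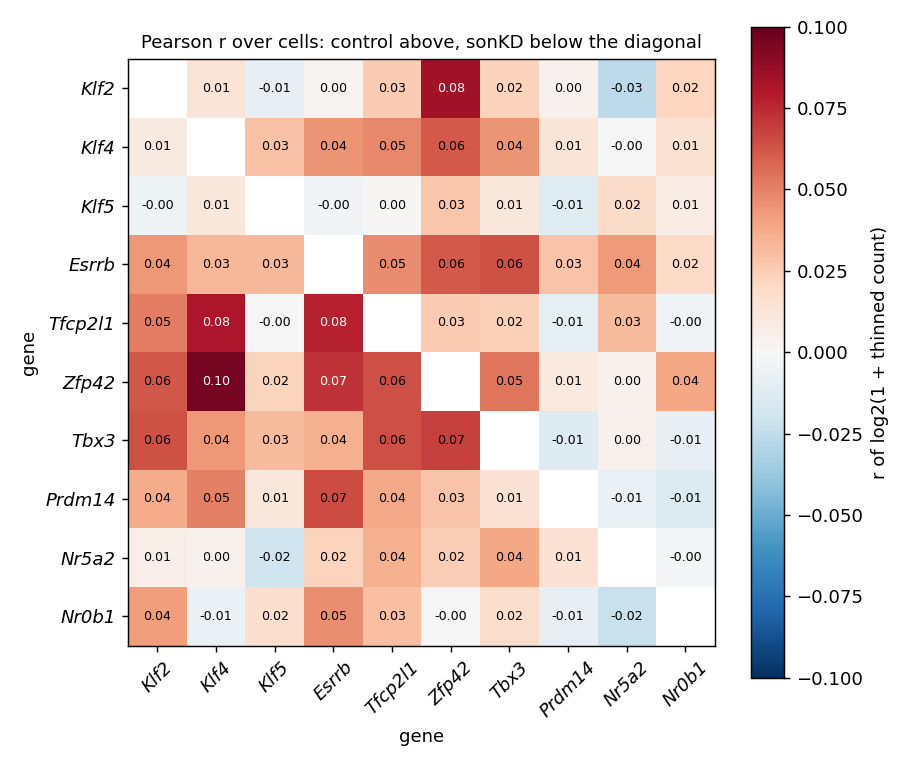
Pearson r over cells of log2(1 + thinned count) for each pair of factors, control above and sonKD below the diagonal, as a colour scale with the values printed. Values run from -0.026 to 0.084 in control and from -0.022 to 0.096 in sonKD. The highest ones involve Zfp42, Klf2, Klf4, Esrrb, Tbx3 and Tfcp2l1.

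On the scale of molecules, cells were ordered by the summed UMIs of the other 9 factors and cut into 4 equal parts. Klf4 averaged 0.254 UMIs in the lowest part and 0.387 in the highest part of control, 1.53-fold higher (95% counting interval 1.32 to 1.76), and was 1.67-fold higher in sonKD (1.37 to 2.03). Esrrb was 1.5-fold higher in control (1.30 to 1.72) and 1.92-fold in sonKD (1.56 to 2.38). Tbx3 was 1.28-fold and 1.62-fold higher, Zfp42 1.32-fold and 1.34-fold, Klf2 1.16-fold and 1.32-fold, and Tfcp2l1 1.14-fold and 1.39-fold. These 6 factors had a counting interval above 1 in both libraries, as did 5.87% of 3644 other genes taken against the sum of all 10. Those genes were not matched to the factors in mean count. An interval excludes 1 more readily at higher counts, so that share may be too low as a comparison. By size, Klf4 and Esrrb alone were past the 95th percentile of those genes in both libraries, which was 0.41 in control and 0.46 in sonKD as a log2 fold. Klf5 was at 1.05-fold (0.963 to 1.14) in control and 0.996-fold (0.88 to 1.13) in sonKD, with intervals that included 1. Under a second random thinning all 10 factors had a fold above 1 in both libraries, so folds this close to 1 depend on the thinning. Nr5a2 was 1.22-fold and 1.18-fold higher and Nr0b1 1.17-fold and 1.27-fold, with intervals that reached 1 in sonKD for Nr5a2 and in both libraries for Nr0b1. Prdm14 averaged under 0.05 UMI per cell in every part, and its fold was 0.976 in control (0.616 to 1.55) and 3.63 in sonKD (1.62 to 9.19).

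Other measures moved with the sum of the 10 factors. From the lowest to the highest part of cells by that sum, Nanog went from 0.330 to 0.503 UMIs in control and from 0.291 to 0.456 in sonKD, and Sox2 from 0.761 to 0.981 and from 0.694 to 0.95. Pou5f1 went from 2.74 to 2.66 in control and from 2.17 to 2.30 in sonKD. The formative and primed factors, in sum, went from 2.28 to 2.28 and from 2.35 to 2.29 UMIs. Most of that sum was Utf1, from 1.07 to 1.02 in control and from 1.08 to 1.04 in sonKD, and Tcf15. Tcf15 went from 0.700 to 0.756 and from 0.764 to 0.776, so the sum says little about the rest of the list. The FGF-ERK list went from 1.87 to 2.16 and from 1.68 to 1.99. Marker sums of other cell types did not share 1 direction. Summed neuroectoderm markers went from 0.236 to 0.332 UMIs in control and from 0.205 to 0.240 in sonKD. Those of primitive endoderm went from 0.813 to 0.728 and from 0.820 to 0.732. Summed trophectoderm markers went from 0.213 to 0.139 UMIs in control and from 0.404 to 0.186 in sonKD. Of these, Krt8 and Krt18 carried 0.182 and 0.117 UMIs in control and 0.35 and 0.151 in sonKD. The other 7 genes of the list went from 0.031 to 0.023 and from 0.054 to 0.035. Over all cells, Tfap2c had 230 and 237 UMIs, Eomes 142 and 109, Cdx2 17 in each library and Elf5 0.
Malat1 went from 5.54 to 7.99 UMIs in control and from 4.84 to 7.76 in sonKD. The median UMI count before thinning went from 7403 to 8008.5 and from 11122 to 11913, and the median mitochondrial share from 3.62% to 3.75% and from 4.10% to 4.27%. The median number of genes in a thinned cell went from 1321 to 1368 and from 1269 to 1306.5, and its r with the factor sum, 0.209 and 0.183, was above that of Malat1, 0.173 and 0.155. With Malat1, depth and mitochondrial share regressed out of the counts, a setting chosen after seeing the data, the median r over pairs was 0.014 in control and 0.028 in sonKD. With the number of genes in the thinned cell regressed out as well, it was 0.011 and 0.029. Within each of 4 equal parts of cells by Malat1, also chosen after seeing the data, it lay between 0.011 and 0.049.

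Among 3644 genes other than the factors with at least 0.1 thinned UMI per cell in both libraries, likeness was measured as the lower of the 2 libraries' r with the factor sum. The gene most alike was Malat1, at 0.155, followed by Tenm4, a teneurin, at 0.129, the histone acetyltransferase gene Kat6b at 0.128, the actin regulator gene Enah at 0.121 and Ranbp17 at 0.118. The glucose transporter gene Slc2a3 was at 0.107, Sox2 at 0.103 and Nanog at 0.101. The central 90% of r over all ranked genes was -0.041 to 0.054 in control and -0.042 to 0.052 in sonKD. The 5 most opposed genes, by the r closer to 0, were Rpl13 at -0.108, Rplp1 at -0.107, Rps27a at -0.106, Mdm2 at -0.104 and Rps24 at -0.103. The 4 that encode ribosomal proteins differed little in level, with log2 folds of the highest over the lowest part between -0.15 and -0.12. Mdm2 had the lowest r of all ranked genes in control, -0.149. Of the 17 ranked genes in the list of other naive-state genes, 14 were positive in both libraries, as were 45.4% of all ranked genes.

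Mdm2, which encodes the ubiquitin ligase that limits p53 and is itself induced by p53, averaged 0.720 UMIs in the lowest part of control cells by factor sum and 0.327 in the highest, and 0.545 and 0.330 in sonKD. The means of the 4 parts were not evenly spaced: the difference lay between the lowest part and the other 3 in both libraries. Mdm2 is described because it was among the genes most opposed to this sum in these same cells. A lower factor sum in cells rich in Mdm2 follows from that choice and is no separate result. Cells with 3 or more thinned Mdm2 UMIs numbered 222 in control (4.46%) and 87 in sonKD (3.19%), and these bins were chosen after seeing the data. In those control cells the factor sum was at 71.4% of its mean in cells without Mdm2 (95% counting interval 66.8 to 76.3), and in those sonKD cells at 76.2% (68.4 to 84.6). Klf2 was at 49.1% (40.3 to 59.4) and 63.6% (46.8 to 84.4), Zfp42 at 71.1% and 71.4%, and Tfcp2l1 at 66.4% and 64.6%. Tbx3 went the other way, at 114% in control (93.5 to 137) and 164% in sonKD (123 to 214). Esrrb was at 98.0% in control and 64.5% in sonKD, the latter with an interval from 37.3 to 104. Pou5f1 was at 92.2% and 78.9%.
These cells were shallower before thinning, with a median of 5328.5 against 7890.5 UMIs in control and 7551 against 11841 in sonKD, and Malat1 was at 102% and 115% in them. The part of depth in the Mdm2 pattern was not tested. Within the 4 parts of cells by Malat1, from low to high, Mdm2 in the lowest part by factor sum was 2.98, 2.62, 2.05 and 1.43 times the highest part in control, and 3.08, 2.46, 0.951 and 1.43 times in sonKD.

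**Figure D5:**
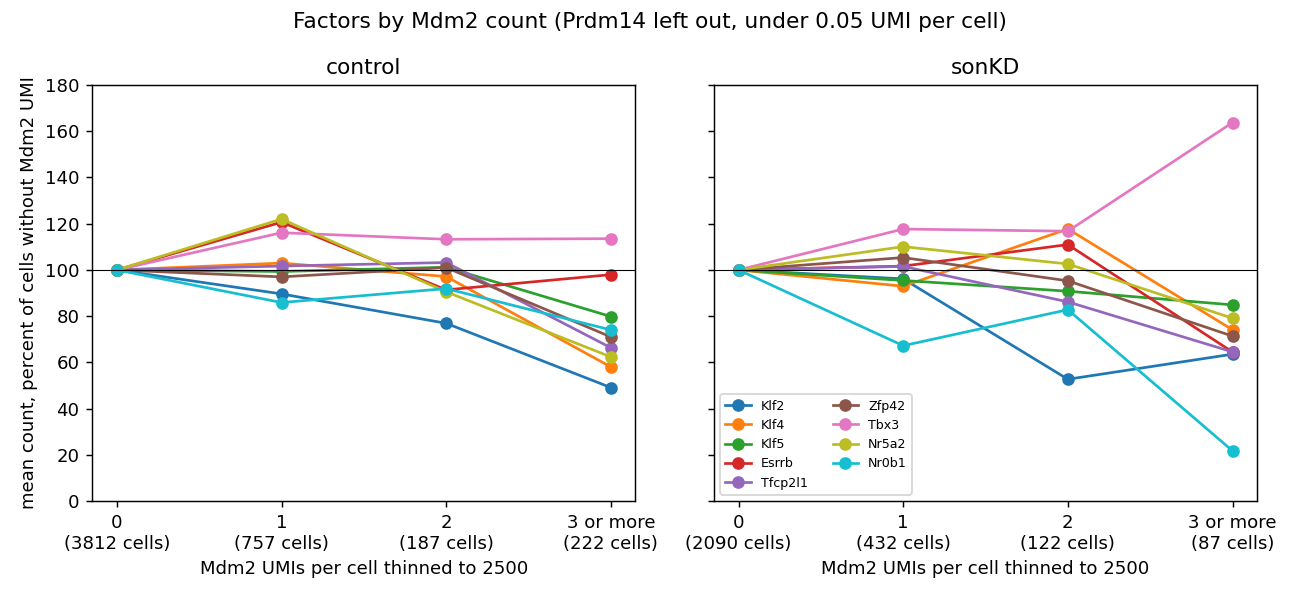
Mean thinned count of 9 factors (Prdm14 left out) in cells with 0, 1, 2 and 3 or more Mdm2 UMIs, as a percentage of the mean in cells without Mdm2, for control (left) and sonKD (right), with lines joining the bins. Klf2 is at 49.1% and 63.6% in the last bin, while Tbx3 is at 114% and 164%.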

How the data were processed

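The deposited matrices give, for each gene and barcode, a whole-number count of UMIs with no normalization, made by the authors with Cell Ranger 7.1.0 on mm10, per the submitters' processing notes, and list all barcodes: 1408944 with 71046373 UMIs in control and 1400093 with 60352438 UMIs in sonKD. The annotation used for counting is not given in the sources used here. Positions are from GENCODE M21, which holds 32158 of the 32285 gene identifiers, and promoters from RefSeq. Counts were summed over kept cells (40902904 and 32032551 UMIs) and scaled to CPM. Sums under 3 were set to 3. Intervals are at 95% (exact Poisson, exact binomial and exact conditional binomial) and cover counting error only. Each cell was also thinned to 2500 UMIs with a fixed seed. Genes were counted as lower or higher from 1.2-fold.

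No doublets were removed, following the cell rule. Scrublet in scanpy 1.11.5 called 3 control cells (0.0603%) and 1 sonKD cell (0.0366%), too few for a working call, so an alternative left out the 198 and 60 cells with the highest scores. Python 3.11.15, numpy 2.4.6, scipy 1.17.1, R 4.3.3 and edgeR 4.0.16 (TMM factors alone) were used, and DESeq2 size factors were computed by their formula. The scripts were tested on simulated data.

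Beside the 10 factors, Son and Malat1, the text names the core trio, the highest and lowest gene of each pathway list, the 8 genes most alike and the 5 most opposed. Genes that carried most of a list's sum are named as well. The factors and lists were chosen with earlier results of these data known.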

Additional observations from a re-analysis of the deposited data

How the results depend on the processing

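No paired analysis was possible because each group held 1 library, and for the same reason no library could be left out. Over cell filters of 5000 UMIs, 5% and 20% mitochondrial UMIs, left-out doublet scores, means per cell and a pseudocount of 1, the number of factors lower by 1.2-fold was 2 each time. By TMM factors, DESeq2 size factors and without mitochondrial and ribosomal protein genes, the median factor ratio was -0.012, -0.017 and -0.031. Then 0, 0 and 1 factors were lower by 1.2-fold, and 1 factor, Nr0b1, was higher by it each time (0.292, 0.287 and 0.273). Tfcp2l1 reversed to 0.032, 0.027 and 0.013 and Zfp42 to 0.036, 0.031 and 0.017. These scalings move all genes alike. Of 90 recomputed factor ratios, 65 moved by less than their counting interval, 19 by more without changing the sign of a ratio whose interval excluded 0, and 6 reversed. All 20 detection shares were higher at 5000 thinned UMIs. The median Fano factor in sonKD was 1.13 at 2500 and 1.29 at 5000 thinned UMIs, and the median fold between the highest and lowest cells by factor sum in sonKD was 1.36 with 4 parts and 1.2 with 2. Depth limits Prdm14 throughout and every correlation.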

Other observations

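After Mdm2 appeared among the genes most opposed to the factor sum, 20 known p53 targets and 4 keratins of simple epithelia were read in the same way. Both lists were chosen after that value was seen and support nothing on their own. Without Mdm2 itself, which prompted the list, 9 of the p53 targets had at least 0.1 thinned UMI per cell in both libraries. Of these, 6 had a negative r with the factor sum in both libraries, beside 25.2% of the genes ranked at that level. None had a positive r in both, beside 45.4%. Phlda3 was 1.66 times as high in the lowest as in the highest part of control cells and 1.62 times in sonKD, Trp53inp1 1.88 and 1.70 times, and the cell cycle inhibitor gene Cdkn1a 1.49 and 1.2 times. The pro-apoptotic gene Bax, also a target, was at 0.996 and 1.08 times. Ccng1 was at 1.19 and 1.06 times, Rps27l at 1.07 and 1.06 and Ercc5 at 1.01 and 0.933. Aen was at 1.06 and 0.986 times and Ei24 at 1.09 and 0.941.

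Of the 4 keratins, 0 had at least 0.1 thinned UMI per cell in both libraries. Krt18 averaged 0.052 in control and 0.090 in sonKD, so the folds below rest on few UMIs and carry no interval. Krt18 was 2.25 times as high in the lowest as in the highest part of control cells and 3.33 times in sonKD, and Krt8, its partner in intermediate filaments, 1.22 and 1.77 times. Over whole libraries Krt18 had 20.3 CPM in control against 33.9 CPM in sonKD, and Krt8 had 36.8 and 42.6 CPM. Of the other trophectoderm markers, Elf5 had no UMI, whereas Tfap2c had 230 UMIs in control and 237 in sonKD (log2 ratio 0.40, 0.13 to 0.66). Eomes had 142 and 109 UMIs.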
